A study of Mus musculus with 15 samples.

Results

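Cxcr4, the receptor gene, and Cxcl12, the gene of its ligand, were followed in CD11b-high, CD45-low-to-intermediate cells sorted from mouse brain after controlled cortical impact (CCI), a contusion of the exposed cortex. The members were chosen by name, since Cxcr4 had been noted as higher than sham at all injured time points and Cxcl12 encodes its ligand. These are 2 of the 547 endogenous genes of an nCounter immunology panel, and both were among the 359 genes that were above background in at least 3 of the 15 samples. The choice rests on measured values of Cxcr4 against sham, so those contrasts are given as a description, while the differences of Cxcr4 between injured time points and all contrasts of Cxcl12 were tested.

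CXCR4 is a G protein-coupled receptor that couples to inhibitory G proteins and directs the migration of leukocytes, progenitor cells and developing neurons toward CXCL12. CXCL12, also called SDF-1, is a chemokine made by stromal cells, and in the brain by endothelial cells, astrocytes and some neurons. The axis is known for holding neutrophils and stem cells in the bone marrow and for guiding cells to sites of injury. MIF is a second ligand of CXCR4, and CD74, its other receptor, forms complexes with CXCR4.

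RNA was counted in 4 samples from sham mice, 4 at 2 days post-injury (2 dpi), 4 at 14 dpi and 3 at 60 dpi. All were male C57BL6J mice, for which the sources give an age of 2 or of 3 months, and the sham mice had surgery 2 days earlier without impact, so the 14 and 60 dpi groups had no sham of their own time and were not randomized. The brain was dissociated and the cells were gated on the surface proteins CD11b and CD45, which does not by itself separate resident microglia from CD45-intermediate blood-derived cells. Sample numbers are names only, and nothing beyond the labels and the methods ties the samples to separate animals, and the p-values then cover the variation among them, which may be technical.

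The nCounter platform counts color-coded probes hybridized to single RNA molecules, without amplification. Endogenous counts summed to between 66905 and 280528 per sample. The sham, 2 dpi and 14 dpi samples filled 1 run of 12 lanes and the 60 dpi samples came from another, and at 60 dpi the effects of run and of time cannot be told apart. The background limit, the mean plus 2 SD of the 8 negative-control probes of a sample, lay between 25 and 34 counts in lanes of the first run and between 57.1 and 67.7 in the second, where the probe NEG_B read 50 to 72 counts against 7 to 12 in the first run. Normalized counts are raw counts divided by positive-control and housekeeping factors, which ran from 0.511 to 1.87. Csf1r and Cx3cr1, receptors that mark microglia, were above background in all 15 samples, at 4764 to 10524 and 2666 to 6713 normalized counts. P2ry12 and Tmem119, which separate microglia from blood-derived macrophages, were not analysed here.

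Cxcr4 lies on the minus strand at chr1:128588199-128592299 and Cxcl12 on the plus strand at chr6:117168535-117181368 of the mouse assembly GRCm38.p6. The window from 250 bases before to 50 bases after each RefSeq start is shown because the group means of receptor and ligand peaked at different times. It spans chr1:128592250-128592549 on the minus strand for Cxcr4 and chr6:117168285-117168584 on the plus strand for Cxcl12. Both are given 5′ to 3′ from RefSeq, with matches to the motifs named after them in capitals.
Cxcr4 promoter: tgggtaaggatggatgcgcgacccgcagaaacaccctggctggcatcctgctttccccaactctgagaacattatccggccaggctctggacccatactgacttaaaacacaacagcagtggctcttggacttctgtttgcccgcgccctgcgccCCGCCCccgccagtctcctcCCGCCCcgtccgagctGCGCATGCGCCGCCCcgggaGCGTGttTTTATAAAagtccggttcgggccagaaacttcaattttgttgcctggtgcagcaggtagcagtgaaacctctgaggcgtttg
Cxcl12 promoter: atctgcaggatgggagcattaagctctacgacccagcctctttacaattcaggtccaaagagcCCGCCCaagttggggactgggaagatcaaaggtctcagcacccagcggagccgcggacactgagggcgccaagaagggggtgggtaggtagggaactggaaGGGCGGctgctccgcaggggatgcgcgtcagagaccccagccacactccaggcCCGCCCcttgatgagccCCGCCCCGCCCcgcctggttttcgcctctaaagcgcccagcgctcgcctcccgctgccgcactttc

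The motifs searched on both strands were the TATA box TATAAA, the GC box GGGCGG, which binds Sp1-type factors, the NRF1 core GCATGCGC and the hypoxia response core, ACGTG or GCGTG. Of all 32851 windows of the same length, 13.6% held the TATA box, 35.7% the GC box, 2.71% the NRF1 core and 43.8% the hypoxia response core. The Cxcr4 window held 2 overlapping TATA matches at -32 and -30, counted from the start with the base before it as -1, 3 GC boxes at -95, -75 and -50, 2 overlapping NRF1 cores at -59 and -57, and 1 hypoxia response core at -39. The GC box at -50 overlapped the NRF1 core at -57. The Cxcl12 window held 5 GC boxes, at -187, -86, -33, -16 and -11, the last 2 overlapping by 1 base, and none of the other letters. Its GC content was 64.7%, against 59.3% in the Cxcr4 window and a median of 52.7% over all windows. A match is a description of the letters and was not set against binding.

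Cxcr4 was above background in 14 of 15 samples. The sham samples had 43.1, 81.1, 28.9 and 52.2 normalized counts, from 22, 52, 54 and 71 raw counts. Sham 1 lay below its background limit of 26.2 counts, and its 22 counts have an exact Poisson 95% interval of 13.8 to 33.3, which covers counting error only. At 2 dpi the samples had 164.7, 137.1, 104.8 and 69.6 normalized counts, from 135, 141, 169 and 89 raw counts. Of these, 3 lay above every sham sample and 2 dpi 4 lay below sham 2, so the groups overlapped.

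At 14 dpi Cxcr4 had 200.3, 255.3, 319.1 and 280.4 normalized counts, from 288, 262, 196 and 166 raw counts. All 4 lay above every sham and every 2 dpi sample. At 60 dpi it had 176.0, 175.9 and 174.4 normalized counts, from 165, 215 and 196 raw counts. These lay above every sham and 2 dpi sample and below every 14 dpi sample, so that the groups ran in the order sham, 2 dpi, 60 dpi and 14 dpi, with only sham and 2 dpi overlapping.

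**Figure D1:**
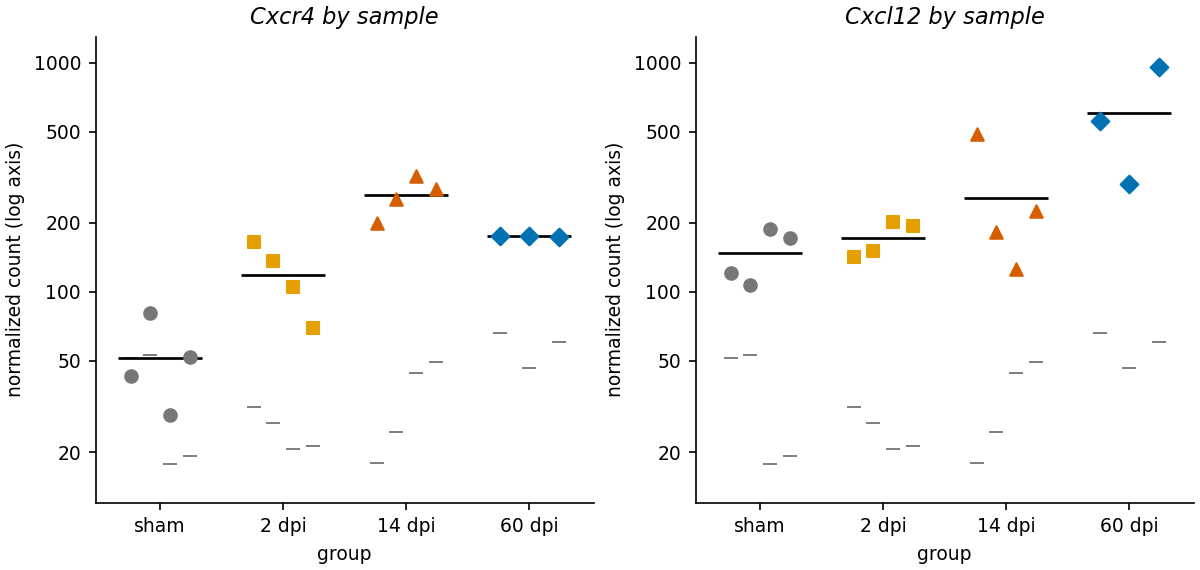
Normalized counts of Cxcr4 (left) and Cxcl12 (right) on a log axis, 1 point per sample, with the group mean as a long line and each sample's background limit as a short dash. Cxcr4 is highest at 14 dpi and its 60 dpi samples sit at 174.4 to 176.0, whereas Cxcl12 is highest at 60 dpi, where the samples span 295.3 to 961.1, and 14 dpi 1 stands at 491.0 above the other 14 dpi samples.

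Mean Cxcr4 was 51.3 ± 22.0 normalized counts in sham, 119 ± 41.1 at 2 dpi, 264 ± 49.8 at 14 dpi (SD, n = 4 each) and 175 ± 0.888 at 60 dpi (SD, n = 3). The means at 2, 14 and 60 dpi were 2.32, 5.14 and 3.42 times the sham mean. The 3 values at 60 dpi had a coefficient of variation of 0.506%, whereas counting error alone gives 7.22% on average at these counts, and in the authors' normalized table the same samples spanned 166 to 183. The closeness of these values is therefore no measure of the precision of that mean. The log2 fold changes of the fit were 1.24 ± 0.28 (SE) at 2 dpi, 2.40 ± 0.28 at 14 dpi and 1.81 ± 0.29 at 60 dpi against sham, which ranked 14, 4 and 23 among the 359 genes.

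These 3 contrasts chose the gene, and the share of all genes called higher in them, with an adjusted p below 0.05, is given for scale only. It was 7.24% at 2 dpi, 21.4% at 14 dpi and 25.1% at 60 dpi, and 28.1%, 4.18% and 11.1% were called lower. The median log2 fold change of all genes was -0.30, 0.08 and 0.12. These splits depended on the scaling. With TMM factors (a trimmed mean over all genes) 47 genes were higher and 43 lower at 2 dpi, against 26 and 101 with the factors used here. At 14 dpi they were 68 higher and 65 lower with TMM factors, against 77 and 15. At 60 dpi they were 76 and 67, against 90 and 40. With the median removed, Cxcr4 stood 1.55, 2.31 and 1.70 above it on the log2 scale.

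Between injured time points, Cxcr4 was higher at 14 dpi than at 2 dpi. Its log2 fold change was 1.15 ± 0.26 (SE, adjusted p = 0.00199), with every 14 dpi sample above every 2 dpi sample (two-sided exact permutation p = 0.0286, the smallest that 4 against 4 allows). In this contrast 39.6% of all genes were called higher and 2.79% lower, and the median gene was 0.43 higher, so that Cxcr4 stood 0.72 above the median. With TMM factors 44 genes were higher and 23 lower, against 142 and 10, and the log2 difference of Cxcr4 was 0.72, with an adjusted p of 0.0269. With positive-control factors alone it did not pass (0.82, adjusted p = 0.498).

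At 60 dpi Cxcr4 was not called against either earlier time. Its log2 fold change against 14 dpi was -0.58 ± 0.28 (SE, adjusted p = 0.101), although the 3 samples at 60 dpi lay below all 4 at 14 dpi (two-sided exact permutation p = 0.0571, the smallest that 3 against 4 allows). In this contrast 21.7% of genes were called higher and 22.3% lower. With housekeeping factors alone 133 genes were higher and 40 lower, against 78 and 80, and the log2 fold change of Cxcr4 was -0.21. Against 2 dpi the log2 fold change was 0.57 ± 0.28 (adjusted p = 0.0835, exact permutation p = 0.0571), beside a median of 0.49 over all genes. There 46.2% of genes were called higher and 10% lower, or 83 and 70 genes with TMM factors, against 166 and 36. Cxcr4 passed against 2 dpi without 2 dpi 1 (0.76, adjusted p = 0.0353). With TMM factors the log2 difference was 0.20 (adjusted p = 0.521).

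Cxcl12 was above background in all 15 samples. The sham samples had 121.4, 107.6, 187.7 and 172.2 normalized counts, from 62, 69, 351 and 234 raw counts. At 2 dpi they had 141.5, 150.7, 201.0 and 194.6, from 116, 155, 324 and 249 raw counts. The 2 groups overlapped, and sham 3 and 4 and 2 dpi 3 and 4 were the higher samples of their groups.

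At 14 dpi Cxcl12 had 491.0, 183.2, 125.4 and 226.4 normalized counts, from 706, 188, 77 and 134 raw counts. One sample, 14 dpi 1, stood above the rest of the group, and 14 dpi 2 and 3 lay within the sham range. At 60 dpi Cxcl12 had 557.9, 295.3 and 961.1 normalized counts, from 523, 361 and 1080 raw counts. All 3 lay above every sham and 2 dpi sample, and 60 dpi 2 lay below 14 dpi 1.

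Mean Cxcl12 was 147 ± 38.7 normalized counts in sham, 172 ± 30.2 at 2 dpi, 256 ± 162 at 14 dpi (SD, n = 4 each) and 605 ± 335 at 60 dpi (SD, n = 3). Cxcl12 was higher at 60 dpi than in sham, with a log2 fold change of 2.02 ± 0.43 (SE, adjusted p = 0.00226; two-sided exact permutation p = 0.0571, the smallest that 3 against 4 allows). It passed with each sample left out in turn and in all 12 other settings tried. At 2 dpi against sham the log2 fold change was 0.21 ± 0.40 (adjusted p = 0.71, exact permutation p = 0.314). At 14 dpi against sham it was 0.80 ± 0.40 (adjusted p = 0.169, exact permutation p = 0.171), and it was 0.25 without 14 dpi 1. Neither contrast passed in any setting.

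Between injured time points, Cxcl12 was higher at 60 dpi than at 2 dpi (log2 fold change 1.81 ± 0.42, SE, adjusted p = 0.00305; exact permutation p = 0.0571), with the groups apart and 1.32 above the median gene. With positive-control factors alone this contrast did not pass (1.28, adjusted p = 0.0858). At 60 dpi against 14 dpi the log2 fold change was 1.22 ± 0.42 (adjusted p = 0.0294), with overlapping groups and an exact permutation p of 0.114. This call was lost without 60 dpi 3 (0.71, adjusted p = 0.196), and also without 60 dpi 1 or 14 dpi 2, 3 or 4 (adjusted p = 0.0593, 0.0837, 0.0584 and 0.0646). It held without 14 dpi 1 or 60 dpi 2. At 14 dpi against 2 dpi the log2 fold change was 0.59 ± 0.40 (adjusted p = 0.257, exact permutation p = 0.514).

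**Figure D2:**
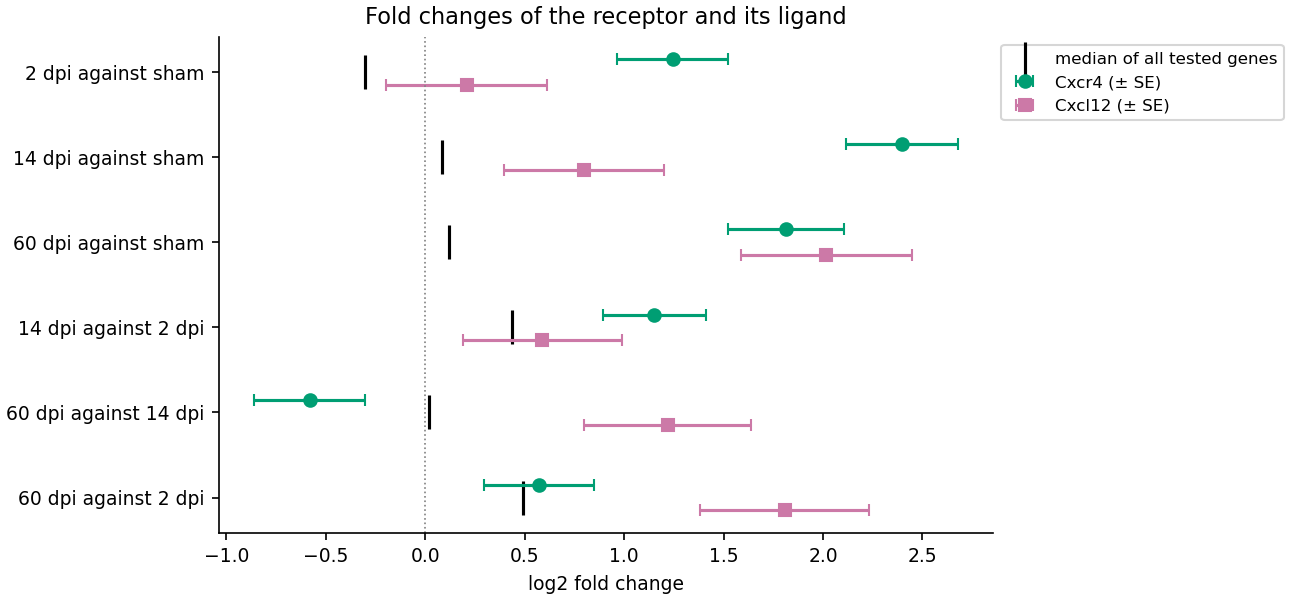
Log2 fold changes of Cxcr4 (circles) and Cxcl12 (squares) with their standard errors in the 6 contrasts, and the median of all 359 tested genes (vertical strokes). Against sham, Cxcr4 peaks at 14 dpi (2.40) and Cxcl12 at 60 dpi (2.02), and between 14 and 60 dpi the estimates have opposite signs (-0.58 and 1.22).

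The Pearson correlation of Cxcr4 and Cxcl12 in log2 normalized counts was 0.31 over the 15 samples, 0.23 over the 12 of the first run and -0.51 after each group's mean was removed. The points share libraries, scaling factors and groups, and these values are a description. Within 14 dpi the sample lowest in Cxcr4, 14 dpi 1, was the highest in Cxcl12, and the sample highest in Cxcr4, 14 dpi 3, was the lowest in Cxcl12.

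The genes whose pattern was closest to Cxcr4, by the same correlation over 15 samples among 358 genes, were Ikbke (r = 0.97), Itgax (0.90), Il1b (0.88), Plaur (0.88) and C3 (0.87). Ikbke encodes a kinase of interferon induction, Itgax the integrin chain CD11c, Il1b the cytokine interleukin-1 beta, Plaur the urokinase receptor and C3 the central complement component. Over the 12 samples of the first run the correlations were 0.98, 0.90, 0.94, 0.91 and 0.90. With group means removed they were 0.95, 0.65, 0.94, 0.59 and 0.68. The median over all genes was 0.20 over 15 samples and 0.28 with group means removed.

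Ikbke counts were low, and 3 sham samples lay below background for it. Its means were 23.3 ± 13.1 normalized counts in sham, 42.4 ± 14.9 at 2 dpi, 77.6 ± 15.4 at 14 dpi and 71.8 ± 0.9 at 60 dpi (SD). Like Cxcr4 it was lowest at 2 dpi in 2 dpi 4 (23.4) and highest in 2 dpi 1 (59.8), and its 60 dpi samples lay between 71.2 and 72.8. Il1b, at 250.2 ± 114.6, 773.2 ± 350.5, 916.9 ± 110.4 and 471.5 ± 29.5 in sham and at 2, 14 and 60 dpi, ordered the 2 dpi samples the same way, from 343.9 in 2 dpi 4 to 1153.0 in 2 dpi 1. Itgax, at 35.3 ± 7.5 in sham, 52.5 ± 18.3 at 2 dpi, 231.7 ± 59.0 at 14 dpi and 105.3 ± 7.0 at 60 dpi, had its highest mean at 14 dpi.

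**Figure D3:**
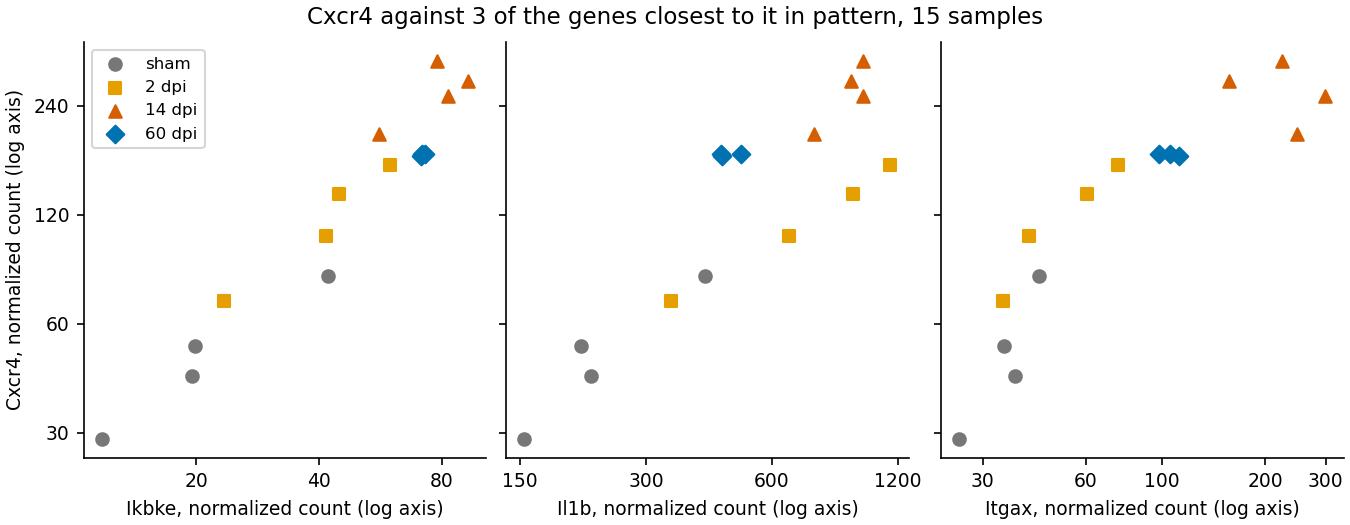
Cxcr4 (vertical, log axis) against Ikbke, Il1b and Itgax (horizontal, log axes) in normalized counts, 1 point per sample, 15 samples by group. Over the 15 samples r is 0.97 for Ikbke, whose 60 dpi samples at 71.2 to 72.8 lie inside its 14 dpi range of 56.3 to 92.9, whereas for Il1b the 60 dpi samples fall to the left of the 14 dpi samples and of 3 of the 4 at 2 dpi at 453.4 to 505.6.

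The genes closest to Cxcl12 were Abcb1a (r = 0.97), which encodes the efflux pump P-glycoprotein of brain endothelium, Cdh5 (0.94), which encodes VE-cadherin of endothelial junctions, Pecam1 (0.93), which encodes the endothelial adhesion protein CD31, App (0.86), the amyloid precursor protein gene, and Lef1 (0.83), a transcription factor of Wnt signaling. Over the 12 samples of the first run the correlations were 0.90, 0.79, 0.77, 0.55 and 0.45. With group means removed they were 0.93, 0.90, 0.94, 0.70 and 0.70, beside a median of -0.23 over all genes. Abcb1a, Cdh5 and Pecam1 were the first 3 genes in each of these rankings.

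Abcb1a had 303.2 normalized counts in 14 dpi 1, the sample high in Cxcl12, against 94.5, 89.6 and 189.2 in the others at 14 dpi. At 60 dpi it had 394.7, 202.9 and 930.0, in the same order of samples as Cxcl12. Pecam1 had 332.8, 193.1 and 624.7 at 60 dpi, and Cdh5 138.7, 88.4 and 315.9, again in that order. Pecam1 at 14 dpi was highest in 14 dpi 1, at 230.9, against 85.8, 87.9 and 147.0.

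The raw count of Cxcl12 divided by that of Abcb1a spanned 1.07 to 1.63 in sham, 1.17 to 1.75 at 2 dpi, 1.20 to 1.94 at 14 dpi and 1.03 to 1.46 at 60 dpi, and the groups overlapped. Divided by Cdh5 it spanned 3.45 to 4.77 in sham, 3.41 to 4.08 at 2 dpi, 3.94 to 7.52 at 14 dpi and 3.04 to 4.02 at 60 dpi. Cdh5 was below background in sham 1 and 2 and in 14 dpi 3, however. With the negative-control mean subtracted, the ratio to Cdh5 spanned 3.97 to 11.6 in sham, where sham 1 gave no value, 4.17 to 4.98 at 2 dpi, 5.49 to 16.5 at 14 dpi and 3.20 to 4.83 at 60 dpi. Divided by Pecam1 it spanned 1.03 to 1.40 in sham, 1.13 to 1.42 at 2 dpi, 1.43 to 2.14 at 14 dpi and 1.53 to 1.68 at 60 dpi, so that the ratios to Pecam1 at 14 and 60 dpi lay above those in sham and at 2 dpi. These ratios compare samples, not the levels of the genes.

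**Figure D4:**
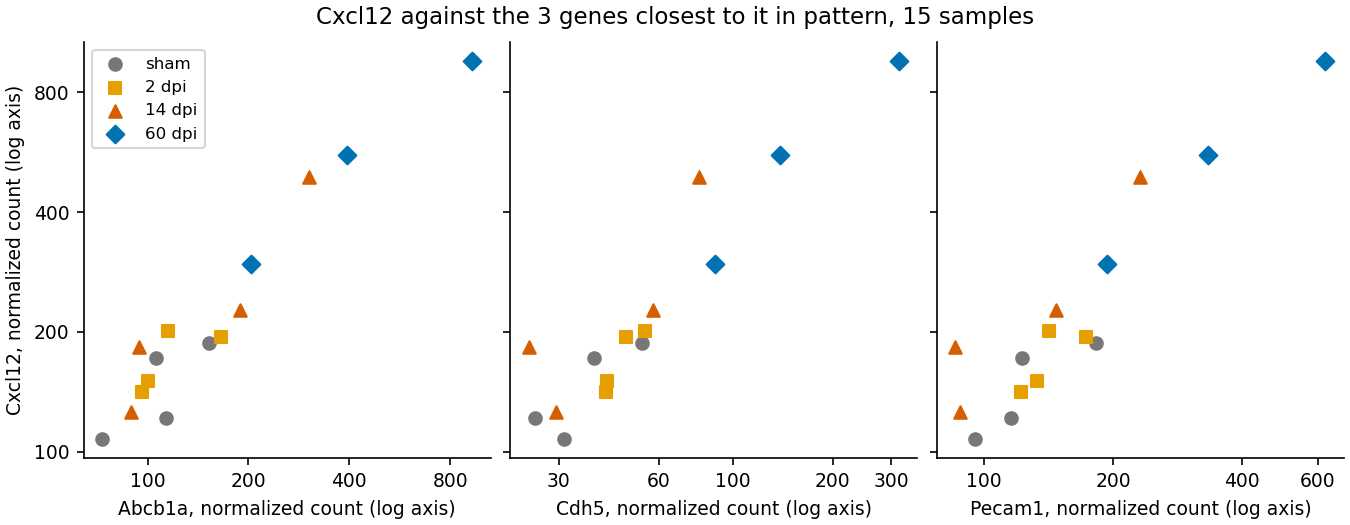
Cxcl12 (vertical, log axis) against Abcb1a, Cdh5 and Pecam1 (horizontal, log axes) in normalized counts, 1 point per sample, 15 samples by group. The samples 60 dpi 3, 60 dpi 1 and 14 dpi 1 form the upper end for Cxcl12 and Abcb1a alike (961.1 and 930.0, 557.9 and 394.7, 491.0 and 303.2).

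Of the list of 16 endothelial and mural genes, 7 were on the panel and 6 were tested. At 60 dpi against sham 4 were higher and none lower: Cdh5 by 2.23 on the log2 scale (SE 0.41, adjusted p = 0.00044), Vcam1, an adhesion receptor for leukocytes, by 1.78, Pecam1 by 1.55 (SE 0.38, adjusted p = 0.00518) and Icam2, an endothelial adhesion protein, by 1.21. The list's median was 1.38, beside 0.12 over all genes, of which 25.1% were called higher and 11.1% lower. Only 2 of the 6 were higher with positive-control factors alone, since Pecam1 and Icam2 did not pass, and with TMM factors 4 were higher and 1 lower. At 14 dpi against sham only Vcam1 passed (1.04), and at 2 dpi Pdgfrb, a pericyte receptor, was higher (0.96) and Pdgfb, its ligand, lower (-0.75). At 2 dpi 7.24% of all genes were higher and 28.1% lower, and at 14 dpi 21.4% and 4.18%. The signs of these fold changes were the same under 4 other scalings, but with positive-control factors alone none of the list passed at 2 or 14 dpi. Summed over the list the level was 1496 to 2171 in sham, 1079 to 1404 at 2 dpi, 1915 to 2426 at 14 dpi and 1589 to 2349 at 60 dpi, and the groups at 60 dpi and sham overlapped. Pdgfb, at 1033 to 1490 normalized counts at 60 dpi and 1237 to 1791 in sham, is the largest part of that sum. The overlap of the sums therefore does not describe the other genes. Pecam1, the next highest by mean in both groups, spanned 95.1 to 182 in sham and 193 to 625 at 60 dpi. Pdgfrb overlapped, at 24.3 to 48.3 and 42.5 to 73.9. Sele was below background in every sample. Endothelial cells lack CD11b and CD45, on which the cells were gated, and the purity of the sort was not analysed here. In bulk samples a different number of cells of a type and a different amount of RNA per cell cannot be told apart, and the part of endothelial RNA in the rise of Cxcl12 was not tested.

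Of the other ligands, co-receptors and cleaving enzymes of the axis, 5 were on the panel and 4 were tested. Cd74, the co-receptor for MIF, averaged 841 ± 178 normalized counts in sham, 1864 ± 190 at 14 dpi and 5740.5 ± 375 at 60 dpi (SD), and was higher than sham at both times (1.15 and 2.77 on the log2 scale, adjusted p = 0.000127 and 4.59e-09). Cd44, a hyaluronan receptor that joins the MIF receptor complex, was higher at 2 dpi (2.04), 14 dpi (1.59) and 60 dpi (1.53), with adjusted p = 0.00534, 0.0248 and 0.0283. In sham, however, Cd44 was above background in only 2 of 4 samples, at 11.2 to 73.3 normalized counts over the group. Mif itself did not pass against sham, and was lower at 60 dpi than at 14 dpi (-0.56, adjusted p = 0.00678). That call passed in 2 of 4 other scalings, between -0.68 and -0.19, and was lost with housekeeping or positive-control factors alone. Ctsg, which encodes cathepsin G, a neutrophil protease able to cleave CXCL12, was higher at 60 dpi than at 14 dpi (1.71), but was above background in only 3 of 15 samples. Dpp4, which encodes a peptidase that inactivates CXCL12, was below background in all 15. Ackr3, the scavenger receptor of CXCL12, was not analysed here.

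Of the 13 tested genes for kinases, phosphatases and factors used downstream of the receptor, 7 were lower at 2 dpi than in sham, none passed at 14 dpi, where Cxcr4 was highest, and 4 were higher and 2 lower at 60 dpi. Of all genes 28.1% were lower at 2 dpi, and 21.4% were higher and 4.18% lower at 14 dpi. At 60 dpi 25.1% were higher and 11.1% lower, so that the 60 dpi counts lay near the shares of all genes. At 2 dpi Mapk14, the p38 kinase gene, was lower by 0.80 on the log2 scale and Src by 0.79. With TMM factors 2 of the 13 were lower at 2 dpi, and 4 were lower at 14 dpi. At 60 dpi Rela, Jak3, Stat5b and Jak2 were higher (0.91, 0.80, 0.78 and 0.58), and Nfkb1 and Src lower (-1.60 and -0.53). With positive-control factors alone only Nfkb1 of these passed.

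Of the other chemokine receptors 8 were tested. At 2 dpi Cmklr1, a chemerin receptor gene, and Cx3cr1 were among the 3 lower than in sham (-0.52 and -0.89), beside 28.1% of all genes, and none was higher. The call of Cmklr1 passed in 1 of 4 other scalings. With TMM factors 1 of the 8 was higher and 2 were lower at 2 dpi, and with positive-control factors alone none was called. At 14 dpi Ccrl2, an atypical receptor that binds chemerin, was higher (1.28). At 60 dpi Ccr2, the monocyte receptor of Ccl2, and Ccr9 were higher (1.6 and 1.05) and Cx3cr1 lower (-0.52), the last in 2 of 4 other scalings. Ccrl2 at 14 dpi averaged 1947 ± 398 normalized counts, against 933 ± 190 at 2 dpi, and like Cxcr4 was higher there (1.06, adjusted p = 0.000868).

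Of the other CXC chemokines 5 were tested. Against sham, 7.24% of all genes were higher and 28.1% lower at 2 dpi. The shares were 21.4% and 4.18% at 14 dpi, and 25.1% and 11.1% at 60 dpi. The neutrophil-attracting Cxcl1 and Cxcl3 were higher at 2 dpi than in sham (1.6 and 2.38, adjusted p = 0.00225 and 0.00323), where Cxcl12 was not called. Both were lower at 14 dpi than at 2 dpi (-0.88 and -3.10), beside 2.79% of all genes. At 60 dpi Cxcl11 and Ppbp, a platelet chemokine gene, were higher than in sham (1.51 and 1.43), with no sham sample above background for either gene. Among 12 tested CC and other chemokines, Ccl19 was higher (1.25) and Ccl6 lower (-0.47) at 2 dpi, the call of Ccl6 in none of 4 other scalings. At 14 dpi Ccl5, Ccl19, Ccl4 and Ccl3 were higher (2.84, 1.45, 1.17 and 0.99) and none lower. Ccl19 was above background in only 1 of 4 sham samples and 2 of 4 at 14 dpi, and Ccl5 in 2 of 4 sham samples. At 60 dpi Ccl7, Ccl11, Ccl22 and Ccl2 were higher (2.67, 1.99, 1.73 and 1.49) and Ccl12 lower (-0.90, adjusted p = 0.00997). Ccl11 was above background in no sham or 2 dpi sample, in 1 of 4 at 14 dpi and in all 3 at 60 dpi. Of the CC genes called at 14 dpi, Ccl5 passed with positive-control factors alone, whereas Ccl19, Ccl4 and Ccl3 did not.

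Markers of blood cells, which can carry Cxcr4, were set beside it. Of 8 monocyte genes, 5 were higher than sham at 2 dpi, Cd44 alone at 14 dpi (1.59) and 7 at 60 dpi, beside 7.24%, 21.4% and 25.1% of all genes. The counts were 2, 1 and 4 of the 8 with positive-control factors alone, and 5, 1 and 5 with TMM factors. The summed list spanned 569 to 792 normalized counts in sham, 1294 to 1663 at 2 dpi, 664 to 1122 at 14 dpi and 1097 to 1670 at 60 dpi. Ccr2, the defining gene of that list, averaged 34.4 normalized counts at 14 dpi (24.4 to 42.3), where Cxcr4 was highest, and 29.7 in sham (20.9 to 39.2), and was above background in 2 of 4 samples of each. Ccr2 averaged 39.51 at 2 dpi (31.26 to 50.02), above background in 4 of 4 samples, and was not called against sham. At 60 dpi Ccr2 averaged 85.99 (68.27 to 110.35), above background in 3 of 3 samples, and was called higher than in sham. Of the 6 tested neutrophil genes none was higher at 2 or 14 dpi, and Csf3r, the receptor gene for G-CSF, was lower at 2 dpi (-0.84, adjusted p = 0.00225). Ltf was higher at 60 dpi, but was above background in only 1 of 3 samples there and passed in only 1 of 4 other scalings. With TMM factors none of the 6 was higher at 60 dpi and 1 was lower. Summed over the 7 neutrophil genes on the panel, the level was 1163 to 9127 in sham and 1071 to 10009 at 2 dpi. The sum was 1362 to 2057 at 14 dpi and 9422 to 40002 at 60 dpi. S100a8, a calcium-binding protein gene of neutrophils, stood at 3595.1 in sham 4 and 4170.4 in 2 dpi 3, and the other samples of those groups did not exceed 928.5. Cxcr4 in these 2 samples, 52.2 and 104.8, lay within the range of the other samples of its group. At 60 dpi S100a8 was 4468.7, 19854.3 and 5647.4, whereas Cxcr4 was 176.0, 175.9 and 174.4. Csf3r did not follow S100a8. At 60 dpi against 14 dpi S100a8 was higher (4.70, adjusted p = 0.0152) and Csf3r lower (-0.60, adjusted p = 0.0163), the latter in 2 of 4 other scalings. Among lymphocyte markers, Cd3d, 1 of 5 tested T cell genes, was higher at 60 dpi (1.94, adjusted p = 0.000201). Il7r of that list was lower at 2 and 14 dpi. Klrk1, 1 of 2 tested NK cell genes, was higher at 60 dpi as well (1.17, adjusted p = 0.0403). Of 7 tested B cell genes, Cd22 was higher at 14 and 60 dpi (1.58 and 1.07). Tnfrsf13b was lower at 14 dpi (-0.57), Pou2f2 at 60 dpi (-0.64), and 4 of the 7 at 2 dpi. Of all genes 28.1% were lower at 2 dpi. The shares higher and lower were 21.4% and 4.18% at 14 dpi, and 25.1% and 11.1% at 60 dpi. Klrk1, however, was above background in only 1 of 4 sham samples, 2 of 3 at 60 dpi and none at 2 or 14 dpi. The T cell list had 17 genes on the panel, of which 5 were tested. Summed over the 17 it spanned 304 to 679 in sham and 299 to 434 at 2 dpi. The sum was 309 to 563 at 14 dpi and 695 to 958 at 60 dpi. It includes untested genes such as Cd4, Cd8a and Foxp3, at means of 42.9, 43.2 and 43.9 at 60 dpi with no sample above background. Background was higher in the second run, so the sum at 60 dpi cannot be read as T cell RNA alone. The markers Cd3e, Cd79a and Ms4a1 were below background in all 15 samples. Of 7 tested microglial genes, 5 were lower at 2 dpi, among them Csf1r (-0.70, adjusted p = 0.0035), beside 28.1% of all genes. Tyrobp was higher at 14 and 60 dpi, but passed in only 0 and 1 of 4 other scalings. With TMM factors 3 of the 7 were lower at 14 dpi and none was higher. At 60 dpi Irf8 and Cx3cr1 were lower. None of the 7 passed at any time with positive-control factors alone. The part of blood cells in the level of Cxcr4 was not tested.

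**Figure D5:**
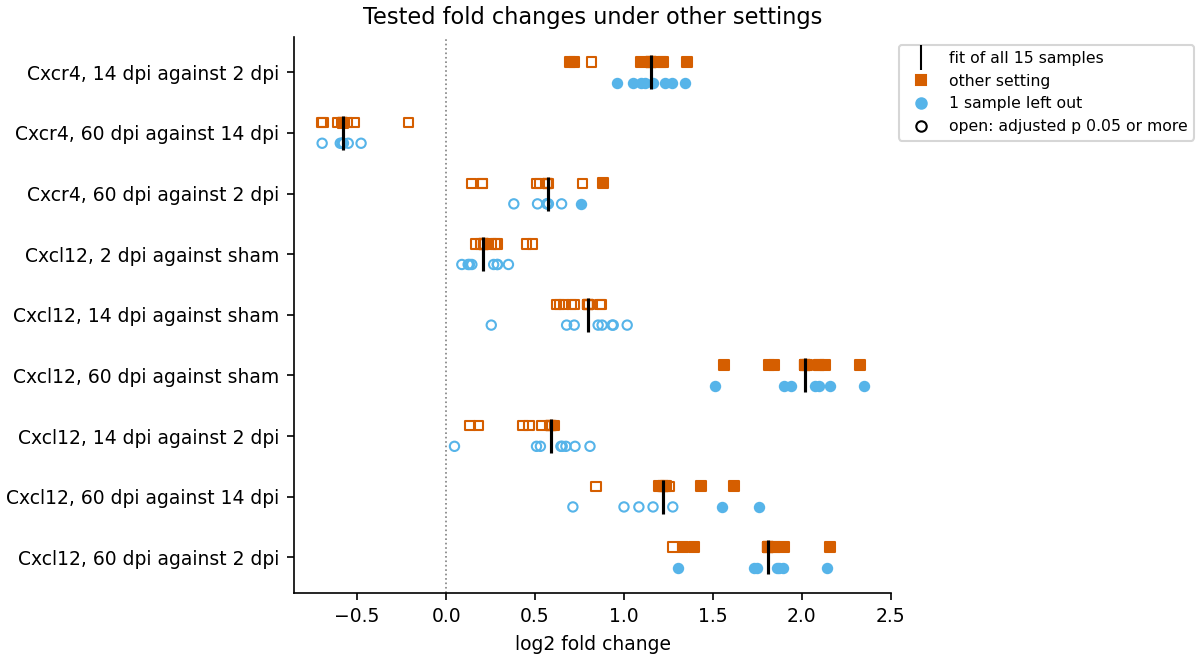
Log2 fold changes of the tested contrasts in the fit of all 15 samples (strokes), under other scalings, tests and filters (squares) and with 1 sample left out (circles), filled where the adjusted p was below 0.05. Cxcl12 at 60 dpi against sham is filled throughout, between 1.51 and 2.35, and Cxcl12 at 60 dpi against 14 dpi is open for 5 of the 7 samples left out.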

How the data were processed

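The authors exported raw nCounter counts, deposited as a table of whole numbers per probe and handled here as estimated counts. They also deposited a table of normalized signal, made with NanoStringNorm by the methods. Each of its 8205 values equalled, within 0.001, the raw count less the negative-control mean (floor 0) scaled to a housekeeping sum of 9027.27. The raw counts were tested with factors from 6 positive controls and 14 housekeeping genes. The test covered 359 of 547 genes, those whose count exceeded the background limit in 3 or more samples, and left out 188.

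Groups were compared in edgeR 4.0.16 (R 4.3.3; quasi-likelihood F test, 1 mean per group, all 15 samples) with Benjamini-Hochberg adjustment over 359 genes at 0.05. Errors of log2 fold changes are SE. Exact permutation tests used mean log2 normalized counts. The test was tried on simulated data. Correlations used log2(normalized count + 1).

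The alternatives were TMM, housekeeping or positive-control factors alone, DESeq2 1.42.0, subtraction of the negative-control mean, an additive background model, other filters (321 or 365 genes, or none), fits of fewer groups, limma 3.58.1 on log2(value + 1) of the authors' signal, and leaving out each sample. The members, gene lists and rule for named genes (the 5 genes closest in correlation, and list members that passed or define a cell type) were chosen with earlier results of these data known. Ratios to endothelial genes and within-group correlations were added after seeing the data. Promoters matched RefSeq for 2 of 2 genes. Staining and qPCR were not analysed here. Not every tested list member is reported here.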

Additional observations from a re-analysis of the deposited data

Results flagged for a closer look

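In 3 contrasts the difference between injured time points passed its own test, so that the effects of the same gene against the same sham samples differed between times. For Cxcr4, the effect at 14 dpi exceeded that at 2 dpi by 1.15 on the log2 scale (SE 0.26, adjusted p = 0.00199), with all 4 samples at 14 dpi above all 4 at 2 dpi. For Cxcl12, the effect at 60 dpi exceeded that at 2 dpi by 1.81 (SE 0.42, adjusted p = 0.00305), with all 3 samples at 60 dpi above all 4 at 2 dpi. For Cxcl12, the effect at 60 dpi exceeded that at 14 dpi by 1.22 (SE 0.42, adjusted p = 0.0294), with 2 of 3 samples at 60 dpi above all 4 at 14 dpi. In both comparisons at 60 dpi the time point and the second run cannot be told apart. No sample stood out by the gap to its neighbour in the 6 groups of 4 samples examined.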

How the results depend on the processing

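No fold change of Cxcr4 or Cxcl12 changed sign under any alternative. Cxcl12 at 60 dpi against sham passed throughout (1.56 to 2.33 over other settings, 1.51 to 2.35 with a sample left out). With positive-control factors alone, Cxcr4 at 14 against 2 dpi (0.82, adjusted p = 0.498) and Cxcl12 at 60 against 2 dpi (1.28, 0.0858) did not pass. Cxcl12 at 60 against 14 dpi did not pass with those factors (0.84, 0.273), TMM factors (1.21, 0.066), the negative-control mean subtracted (1.26, 0.0583), no background filter (1.22, 0.0527) or only 2 groups in the fit (1.22, 0.11), and spanned 0.71 to 1.76 with a sample left out. Cxcr4 passed at 60 against 14 dpi with only 2 groups in the fit (-0.58, 0.022) and at 60 against 2 dpi with housekeeping factors alone (0.88, 0.0117), where it spanned 0.38 to 0.76 with a sample left out. On the authors' values Cxcr4 at 14 and 60 dpi against sham was 2.93 and 2.35. The cause of these changes was not tested.

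Counts of called genes moved most with the scaling: higher and lower, with the range over other settings, 26 (20 to 57) and 101 (1 to 122) at 2 dpi, 77 (20 to 82) and 15 (0 to 69) at 14 dpi, 90 (48 to 124) and 40 (18 to 77) at 60 dpi against sham, 142 (7 to 156) and 10 (8 to 28) at 14 against 2 dpi, 78 (36 to 133) and 80 (40 to 96) at 60 against 14 dpi, and 166 (29 to 230) and 36 (24 to 77) at 60 against 2 dpi. No paired analysis was possible because the replicate numbers follow accession order and pair no samples. With 3 or 4 samples a group the exact tests could not go below 0.0571 and 0.0286, and counts near the background limit, as for Cxcr4 in sham, bound the precision of its folds.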
